A study of Mus musculus with 6 samples.

Results

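The genes described here are those of MHC class I antigen presentation and of the immunoproteasome. They were chosen by name as B2m, H2-K1, H2-D1, Tap1, Tap2, Tapbp, Psmb8, Psmb9, Psmb10 and Nlrc5, and all 10 were found among the 55335 gene rows of the deposited count table. Each was read in RNA-seq libraries of mouse intestinal tissue, 3 labelled Trmt6-/- (KO72, KO73 and KO75) and 3 labelled WT (WT185, WT186 and WT187). Each library was taken as 1 mouse. Both groups had colitis induced by dextran sulfate sodium (DSS), which damages the gut lining, so every value below compares genotypes within colitic mice. The genotype label Trmt6-/- names a knockout of Trmt6, which encodes a subunit of the tRNA m1A58 methyltransferase. The sources used here give no age, sex, strain, DSS dose, gut segment or design of the Trmt6 allele, and no untreated animals were analysed here. A p-value sets the difference between the groups against the spread within the 3 libraries of each group. It does not account for unlisted differences between the groups.

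MHC class I molecules show peptides from the inside of a cell to CD8 T cells. The heavy chains H2-K1 and H2-D1 pair with B2m, the peptides are cut by proteasomes, pumped into the endoplasmic reticulum by the Tap1-Tap2 transporter and loaded with the help of tapasin (Tapbp). Interferon-gamma induces most of this machinery, replaces the constitutive catalytic proteasome subunits Psmb6, Psmb7 and Psmb5 by Psmb9, Psmb10 and Psmb8, and acts in part through the transactivator Nlrc5, which works at class I promoters together with RFX, CREB/ATF and NF-Y factors. Intestinal epithelium carries class I constitutively, and interferon-gamma from T and NK cells is a known inducer of it there.

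The promoter letters are shown first, because the class I genes are known for a promoter module that Nlrc5 works through. RefSeq (GRCm38.p6) promoters of 250 bases before to 50 after the start matched 8 of the 10 genes, all but Tap2 and Nlrc5. On both strands were searched an interferon-stimulated element (GAAANNGAAA), a gamma-activated site (TTCNNNGAA), a kappaB site (GGGGNNTCCC), an X2 core (TGACG) and a CCAAT box, which reads ATTGG on the other strand. Capitals mark these matches in the stretches below, and for Tap1 and Psmb9 the whole shared window is given. The kappaB letters of H2-K1 and H2-D1 match on both strands, 1 base apart, and are capitalised together.
B2m, chr2:122147543-122147643, plus strand: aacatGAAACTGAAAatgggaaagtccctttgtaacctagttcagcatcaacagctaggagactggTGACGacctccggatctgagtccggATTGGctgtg
H2-K1, chr17:34000354-34000463, minus strand: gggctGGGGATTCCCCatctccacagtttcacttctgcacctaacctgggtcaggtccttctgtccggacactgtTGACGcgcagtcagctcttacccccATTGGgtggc
H2-D1, chr17:35262918-35263027, plus strand: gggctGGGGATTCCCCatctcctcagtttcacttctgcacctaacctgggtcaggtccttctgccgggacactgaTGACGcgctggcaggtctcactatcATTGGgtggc
Psmb8, chr17:34198068-34198136, plus strand: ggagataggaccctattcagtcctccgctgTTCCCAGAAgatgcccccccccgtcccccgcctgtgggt
Tap1 and Psmb9, chr17:34187306-34187580, plus strand: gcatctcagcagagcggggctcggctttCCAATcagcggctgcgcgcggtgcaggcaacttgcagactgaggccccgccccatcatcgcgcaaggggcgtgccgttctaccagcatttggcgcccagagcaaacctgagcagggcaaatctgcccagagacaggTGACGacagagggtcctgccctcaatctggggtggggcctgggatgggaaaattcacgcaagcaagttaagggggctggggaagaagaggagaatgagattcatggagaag

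The 3 genes whose products make the class I complex itself shared one arrangement. In B2m, H2-K1 and H2-D1 an X2 core was followed by ATTGG starting 25 bases downstream, a spacing found in 31 of 32851 promoters (0.0944%). The spacing counted is the one seen in these 3 genes, which are among those promoters, and H2-K1 shows it from 2 start sites. That share is a description. The H2-K1 and H2-D1 stretches had 99 of 110 bases the same (90.0%), and both held the kappaB letters, which 1.67% of all promoters hold. B2m held the interferon-stimulated letters (3.44% of promoters) and Psmb8 the gamma-activated site (8.30%). The X2 core alone is common, with 20.8% of promoters, and the CCAAT box more so, with 37.4%. Tap1 and Psmb9 lie head to head with start sites 226 bases apart, so their windows overlap by 275 bases, and the one X2 core and the one CCAAT box in it belong to both. The constitutive partner genes Psmb5 and Psmb6 also held the X2 core. The promoter of Psmb10 held none of the 5 motifs, and that of Tapbp held CCAAT only. Only the exact letters given were searched, so variant forms of an element, in H2-K1, H2-D1 or any other gene, were neither marked nor counted. These matches are descriptions of letters.

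Libraries held 15213972 to 16479870 counts in the Trmt6-/- group and 16024317 to 16972758 in WT, and 14107 genes were abundant enough to test, including all 10 described here. Levels below are counts per 1000000 (CPM), with libraries scaled by the trimmed mean of M values (TMM). Fold changes are log2, Trmt6-/- over WT, with SE, from edgeR's quasi-likelihood test, adjusted over all tested genes by Benjamini-Hochberg with a threshold of 0.05. Trmt6 itself had 39.8, 34.2 and 36.2 CPM in KO72, KO73 and KO75, against 30.9, 18.7 and 23.1 CPM in WT185, WT186 and WT187 (log2 fold change 0.60 ± 0.21, adjusted p = 0.335). The target transcript was thus not lower where the label says knockout, so the groups are named by their labels throughout. Whether labels were exchanged was not tested, and an exchange would turn every direction given here. Gene-level counts do not show which exons were read.

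None of the 10 genes passed the threshold over all genes, and 6 genes of 14107 did (0.0425%). All 10 had a fold change below 0, as did 53.9% of all genes tested. Their median log2 fold change was -0.91, against -0.03 over all genes tested, and it was -0.59 without WT186. Tap1, Psmb8 and Psmb9 were at an unadjusted p under 0.05 in the lower direction, 3 of 10 beside 5.94% of all genes. The same 3 genes had every Trmt6-/- library below every WT library, a pattern that 9.03% of all genes showed. DESeq2 called Psmb8 (adjusted p = 0.0307) and Psmb9 (adjusted p = 0.0036), 2 of 10 beside 1.83% of genes called lower by that tool. With library totals in place of TMM, B2m, Tap2 and Psmb10 joined Tap1, Psmb8 and Psmb9 in not overlapping, 6 of 10 beside 11.5% of genes. The 3 genes off chromosome 17 had a median log2 fold change of -0.90, and the 7 on it had -0.91.

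**Figure D1:**
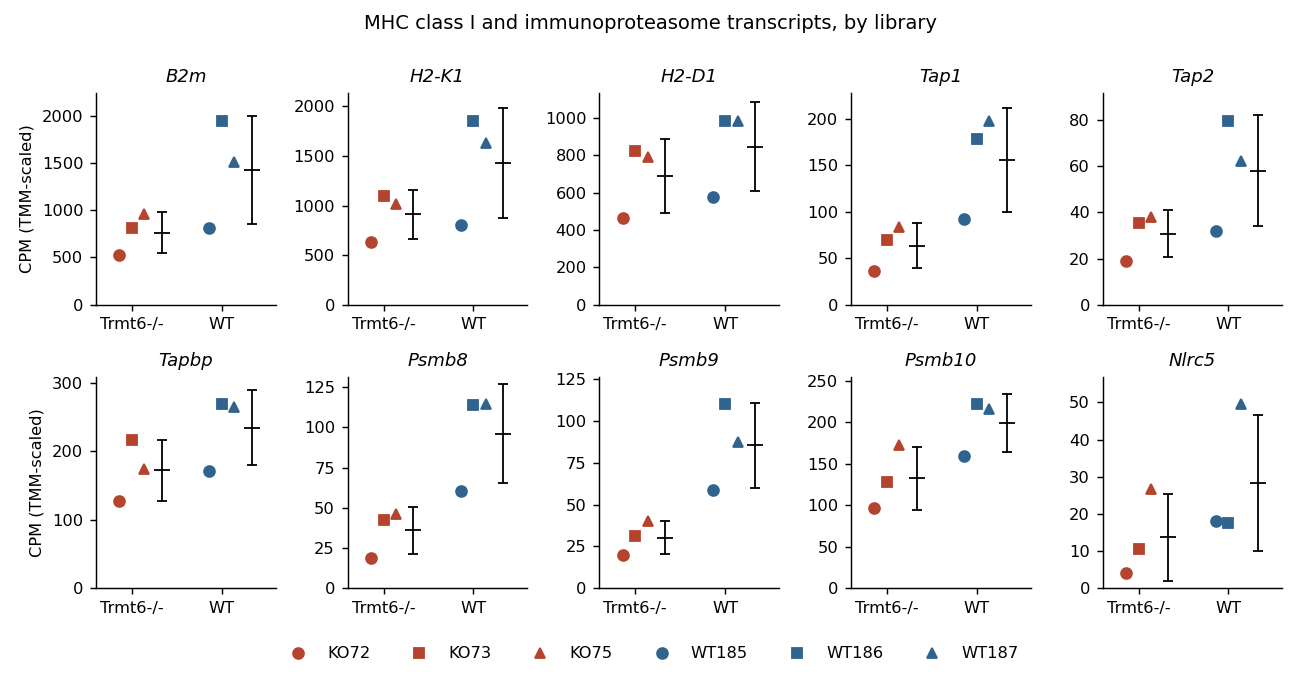
TMM-scaled CPM of the 10 genes on linear axes that start at 0, with each point 1 library, the libraries labelled Trmt6-/- left of WT, and the mean ± SD of each group drawn beside its points. KO72 is the lowest point in every panel, and the groups do not overlap for Tap1, Psmb8 and Psmb9.

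The order of levels is clearest per length of gene model. On the TPM scale, which divides counts by gene length, means over 6 libraries were 4094 for B2m, 1283 for H2-K1, 955 for H2-D1, 314 for Psmb10, 181 for Tapbp, 65.3 for Tap1, 63.8 for Psmb8, 51.6 for Psmb9, 37.8 for Tap2 and 8.13 for Nlrc5. Neighbours kept this order in all 6 libraries except for Tap1 above Psmb8, in 4, and Psmb9 above Tap2, in 5. The light chain gene was therefore the most abundant of the 10, and the transactivator the least, in every library.

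Among the class I chains, B2m encodes the light chain that every class I heavy chain needs. B2m (ENSMUSG00000060802.8; chromosome 2, 122147686 to 122153083, plus strand) had 523, 807 and 956 CPM in KO72, KO73 and KO75, against 809, 1944 and 1513 CPM in WT185, WT186 and WT187. WT186 and WT187 stood above all other libraries, whereas WT185 lay inside the range of the libraries labelled Trmt6-/-. The means were 762 ± 220 CPM in the libraries labelled Trmt6-/- and 1422 ± 573 CPM in WT (SD, n = 3 each), with a log2 fold change of -0.90 ± 0.39 (adjusted p = 0.427). H2-K1 (ENSMUSG00000061232.16; chromosome 17, 33996017 to 34000347, minus strand), a classical heavy chain gene, had 630.1, 1092 and 1014 CPM in KO72, KO73 and KO75, against 805, 1855 and 1636 CPM in WT185, WT186 and WT187. WT185 lay between KO72 and KO75. Its log2 fold change was -0.65 ± 0.38 (adjusted p = 0.580). H2-D1, the other classical heavy chain gene (ENSMUSG00000073411.12; chromosome 17, 35262730 to 35267499, plus strand), had 463, 820.4 and 789 CPM in KO72, KO73 and KO75, against 575, 982 and 984 CPM in WT185, WT186 and WT187, so WT185 lay inside the Trmt6-/- range. It averaged 691 ± 198 CPM in the libraries labelled Trmt6-/- and 847 ± 236 CPM in WT (SD, n = 3 each), with a log2 fold change of -0.29 ± 0.32 (adjusted p = 0.797). H2-K1 and H2-D1 share long stretches with other class I genes, and the deposited header names no option for counting reads that map to several places. By the program's default such reads go uncounted, so the values of these genes are uncertain.

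The transporter genes carry peptides into the endoplasmic reticulum. Tap1 (ENSMUSG00000037321.17; chromosome 17, 34187553 to 34197225, plus strand) had 36.5, 70.1 and 83.2 CPM in KO72, KO73 and KO75, against 91.9, 178 and 198 CPM in WT185, WT186 and WT187. The groups did not overlap: the highest Trmt6-/- library was KO75 and the lowest WT library was WT185. Its means were 63.2 ± 24.1 CPM in the libraries labelled Trmt6-/- and 156 ± 56.2 CPM in WT (SD, n = 3 each), a log2 fold change of -1.30 ± 0.39 (unadjusted p = 0.0128, adjusted p = 0.275). Tap2, the partner chain (ENSMUSG00000024339.12; chromosome 17, 34203527 to 34216321, plus strand), had 19.1, 35.5 and 37.9 CPM in KO72, KO73 and KO75, against 32.0, 79.7 and 62.5 CPM in WT185, WT186 and WT187. Here WT185 lay below 2 of the 3 Trmt6-/- libraries, and the log2 fold change of -0.91 ± 0.39 had an adjusted p of 0.418. Tapbp, the tapasin that bridges the transporter and the class I complex (ENSMUSG00000024308.15; chromosome 17, 33915899 to 33929292, plus strand), had 127, 216 and 175 CPM in KO72, KO73 and KO75, against 171, 269 and 264 CPM in WT185, WT186 and WT187. WT185 again lay below KO73 and KO75. Tapbp averaged 173 ± 44.6 CPM in the libraries labelled Trmt6-/- and 235 ± 55.0 CPM in WT (SD, n = 3 each), a log2 fold change of -0.44 ± 0.27 (adjusted p = 0.589). Overlapping annotation limits these genes: 29.0% of Tapbp exon bases are shared with Zbtb22 and Gm19412, 18.5% of Tap2 with Gm15821 and Gm20496, and 14.7% of Psmb8 with Gm20496, and Tap1 and Psmb9 share 212 bases with each other. Counting was unstranded, and by the same default reads that touch 2 genes go uncounted.

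Psmb9 and Psmb8, catalytic subunits of the immunoproteasome, had the largest fold changes of the 10 in size with all 6 libraries in the edgeR fit. Nlrc5 was larger without KO75 (-1.95, against -1.74 for Psmb9) and with voom quality weights (-1.98, against -1.54). It was also slightly larger without WT186 (-1.28, against -1.26 for both Psmb8 and Psmb9). Psmb9, the inducible counterpart of Psmb6 (ENSMUSG00000096727.3; chromosome 17, 34181987 to 34187764, minus strand), had 19.9, 30.9 and 39.9 CPM in KO72, KO73 and KO75, against 58.7, 110 and 87.3 CPM in WT185, WT186 and WT187. Every Trmt6-/- library was below every WT library. The means were 30.2 ± 10.05 CPM in the libraries labelled Trmt6-/- and 85.2 ± 25.5 CPM in WT (SD, n = 3 each), a log2 fold change of -1.49 ± 0.32 (unadjusted p = 0.00246, adjusted p = 0.180). Psmb8, the counterpart of Psmb5 (ENSMUSG00000024338.15; chromosome 17, 34197721 to 34201454, plus strand), had 19.1, 42.4 and 46.5 CPM in KO72, KO73 and KO75, against 60.4, 114 and 114 CPM in WT185, WT186 and WT187. The groups again did not overlap. The means were 36.0 ± 14.7 CPM in the libraries labelled Trmt6-/- and 96.1 ± 30.9 CPM in WT (SD, n = 3 each), with a log2 fold change of -1.42 ± 0.39 (unadjusted p = 0.0087, adjusted p = 0.250). Psmb10, the counterpart of Psmb7 (ENSMUSG00000031897.9; chromosome 8, 105935735 to 105938444, minus strand), had 96.2, 128 and 173 CPM in KO72, KO73 and KO75, against 159, 221 and 216 CPM in WT185, WT186 and WT187. Only KO75 reached into the WT range. Psmb10 averaged 132 ± 38.4 CPM in the libraries labelled Trmt6-/- and 199 ± 34.5 CPM in WT (SD, n = 3 each). Its log2 fold change was -0.59 ± 0.25 (adjusted p = 0.426).

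The ratio of an inducible subunit to its constitutive counterpart does not depend on how libraries are scaled. Psmb9 to Psmb6 was 0.289, 0.422 and 0.489 by counts in KO72, KO73 and KO75, against 0.790, 1.41 and 1.37 in WT185, WT186 and WT187, with no overlap (log2 difference -1.56, two-sided exact permutation p = 0.1). That is the smallest p that 3 against 3 libraries allow, so this design could not reach 0.05. Psmb8 to Psmb5 was 0.403, 1.08 and 1.23 in KO72, KO73 and KO75, against 1.10, 2.89 and 2.48 in WT185, WT186 and WT187 (exact p = 0.2, log2 difference -1.29). KO75 exceeded WT185 in that pair, and the difference was -0.79 without KO72 and -1.72 without WT185. Psmb10 to Psmb7 averaged 2.62 ± 0.512 in the libraries labelled Trmt6-/- and 3.79 ± 0.791 in WT (SD, n = 3 each; exact p = 0.2, log2 difference -0.53). Across the 14 constitutive 20S subunits the median log2 fold change was -0.04. At an unadjusted p under 0.05, 1 of the 14 was lower, Psma1 (log2 fold change -0.37 ± 0.15), beside 5.94% of all genes. Leaving out single libraries gave -1.83 to -1.34 for Psmb9 to Psmb6 and -0.71 to -0.38 for Psmb10 to Psmb7.

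Count ratios between other members are given as descriptions, with no test. Tap1 to Psmb9, which share a promoter window, was 2.06 ± 0.215 in the libraries labelled Trmt6-/- and 1.82 ± 0.389 in WT (SD, n = 3 each). H2-K1 to H2-D1 was 1.36, 1.33 and 1.29 in KO72, KO73 and KO75, against 1.40, 1.89 and 1.66 in WT185, WT186 and WT187. These values did not overlap between the groups, but KO72 (1.36) and WT185 (1.40) lay close. How many other gene pairs separate in this way was not counted, and both genes are uncertain for reads that map to several places. B2m to H2-K1 averaged 0.837 ± 0.102 in the libraries labelled Trmt6-/- and 0.993 ± 0.0626 in WT (SD, n = 3 each), and KO75 (0.943) was above WT187 (0.925).

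**Figure D2:**
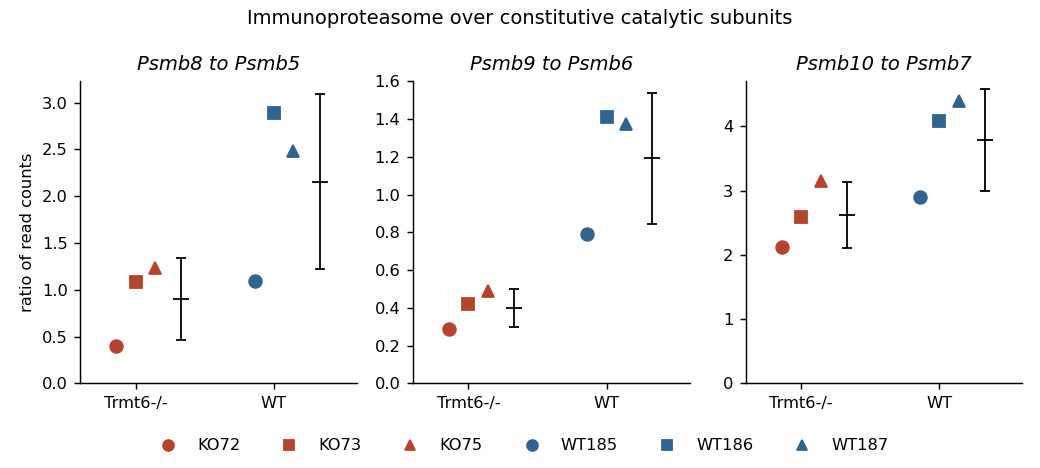
Count ratio of each inducible proteasome subunit to its constitutive counterpart on linear axes that start at 0, 1 point per library, with the libraries labelled Trmt6-/- left of WT and the mean ± SD of each group beside its points. The groups do not overlap for Psmb9 to Psmb6, whereas KO75 lies above WT185 for the other pairs.

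Nlrc5 encodes the transactivator of class I genes. It (ENSMUSG00000074151.13; chromosome 8, 94434356 to 94527272, plus strand) had 4.06, 10.5 and 26.7 CPM in KO72, KO73 and KO75, against 18.1, 17.6 and 49.4 CPM in WT185, WT186 and WT187. KO75 was above WT185 and WT186, and the log2 fold change of -1.05 ± 0.71 had an adjusted p of 0.637. Single libraries moved that value: it was -0.39 without WT187, -0.59 without KO72 and -1.95 without KO75. Nlrc5 also followed the other members least closely, with a Pearson correlation of 0.830 with the mean standardised level of all 10 over the 6 libraries, against 0.987 for Tap1. These correlations include each gene in the mean and are descriptions over 6 libraries.

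The libraries of a group also differed among themselves. KO72 was the lowest of all 6 libraries for 10 of 10 genes. Within WT, WT185 was lowest for 9 of 10, and WT186 for Nlrc5. The highest library was WT186 for 6 genes and WT187 for 4. Log2 fold changes without WT186 were -0.59 for B2m, -0.40 for H2-K1, -0.16 for H2-D1 and -0.60 for Tap2. Without KO72 they were -0.06 for H2-D1 and -0.25 for Tapbp, and that of H2-D1 was -0.18 without WT187 and -0.49 without WT185. KO75 against WT185 gave 3 of 10 genes lower in KO75, with a median log2 difference of 0.18, and KO73 against WT185 gave 6 of 10 lower in KO73, with a median of -0.16. In the remaining 7 pairings of a Trmt6-/- with a WT library, 9 or 10 of the 10 genes were lower in the Trmt6-/- library.

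Markers of position along the intestine moved with these levels. A regional index was taken as the mean log2 CPM of the ileal genes Slc10a2, Slc51b, Fabp6 and Fgf15 less that of the proximal genes Lct, Gata4, Fabp1 and Cybrd1. Its values were 0.62, -0.997 and -4.15 for KO72, KO73 and KO75, against -1.78, -7.93 and -6.23 in WT185, WT186 and WT187. Log2 fold changes ran from 0.19 to 1.73 for the ileal genes (median 0.63) and from -2.60 to 0.21 for the proximal genes (median -1.48). The mean standardised level of the 10 genes was lowest in the library with the highest index, KO72 (-1.49), and highest in the libraries with the lowest index, WT186 (1.05) and WT187 (1.01). With the index as a term in the fit, the median log2 fold change of the 10 genes was -0.15, and H2-K1 and H2-D1 were above 0 at 0.078 and 0.24. Psmb9 stood at -0.88 ± 0.17 (unadjusted p = 0.0017, adjusted p = 0.0779), Psmb8 at -0.72 ± 0.29 (adjusted p = 0.225) and Tap1 at -0.57 ± 0.27 (adjusted p = 0.291). That fit leaves 3 residual degrees of freedom. The index partly follows the genotype label, so the fit cannot fully tell index and genotype apart. The closest pair on the index was KO73 and WT185, which differed by 0.78. Without KO72 and WT186, the libraries at its ends, the median was -0.36, with 9 of 10 genes below 0. Whether the segment sampled accounts for the group difference was not tested.

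**Figure D3:**
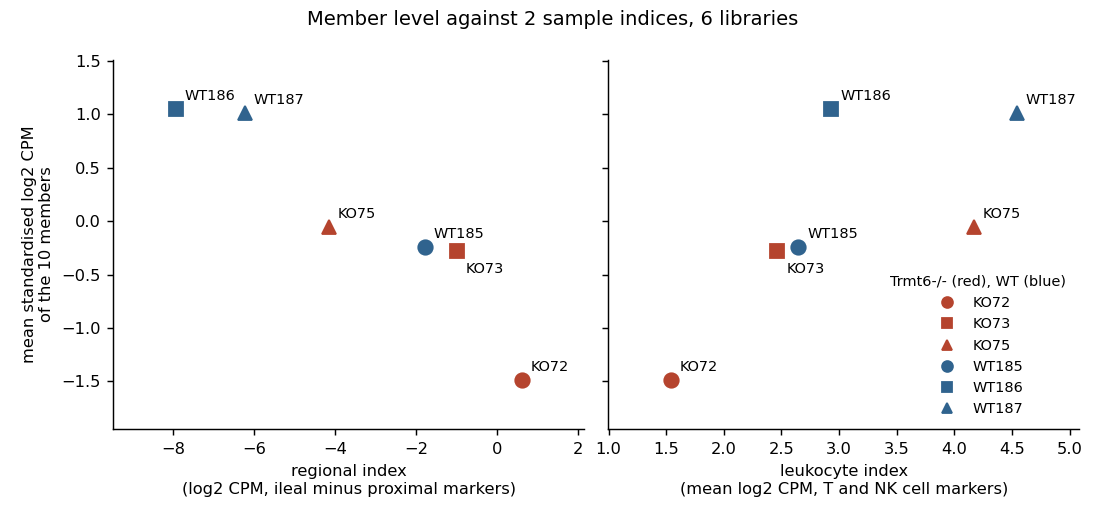
Mean standardised log2 CPM of the 10 genes against the regional index (left panel) and the T and NK cell index (right panel), 1 labelled point per library. WT186 and WT187, with the lowest regional index, are the highest, and KO72, with the highest index, is the lowest.

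Leukocyte markers also varied. Summed T and NK cell markers reached 167, 428 and 1286 CPM in KO72, KO73 and KO75, against 453, 656 and 1682 CPM in WT185, WT186 and WT187. Of 23 tested markers 21 had a fold change below 0 (53.9% of all genes tested did), with a median of -0.41. Of the 23, 1 was lower at an unadjusted p under 0.05, Gzmb, a cytotoxic granule gene (-1.85 ± 0.77), beside 5.94% of all genes. Gzma (-0.61 ± 0.82) and Ccl5 (-0.74 ± 0.80), the most abundant of the list, were not at that level. No marker of that list was at 0 in every library. With the T and NK cell index as a term, the median log2 fold change of the 10 genes was -0.71 (-0.91 without it). Pan-leukocyte markers had a median of -0.26 over 10 tested and monocyte, macrophage and dendritic cell markers -0.61 over 7. Of 10 listed B and plasma cell markers 5 were tested, 3 above 0 and 2 below, from -0.61 to 1.22 (list median 0.94). Xbp1 and Ms4a1 were higher at an unadjusted p under 0.05, beside 868 of all 14107 genes tested. Tnfrsf17 was at 0 in every library. Epithelial markers had a median of 0.14, with 11 of 12 above 0. Small intestinal enterocyte markers had a median of 0.29, with 9 of 12 above 0 and 3 below. The lowest of these was Lct (-2.07 ± 0.79), which is also in the regional index. What part these cell types have in the result was not tested. In bulk tissue fewer cells of a type and less RNA per cell cannot be told apart.

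**Figure D4:**
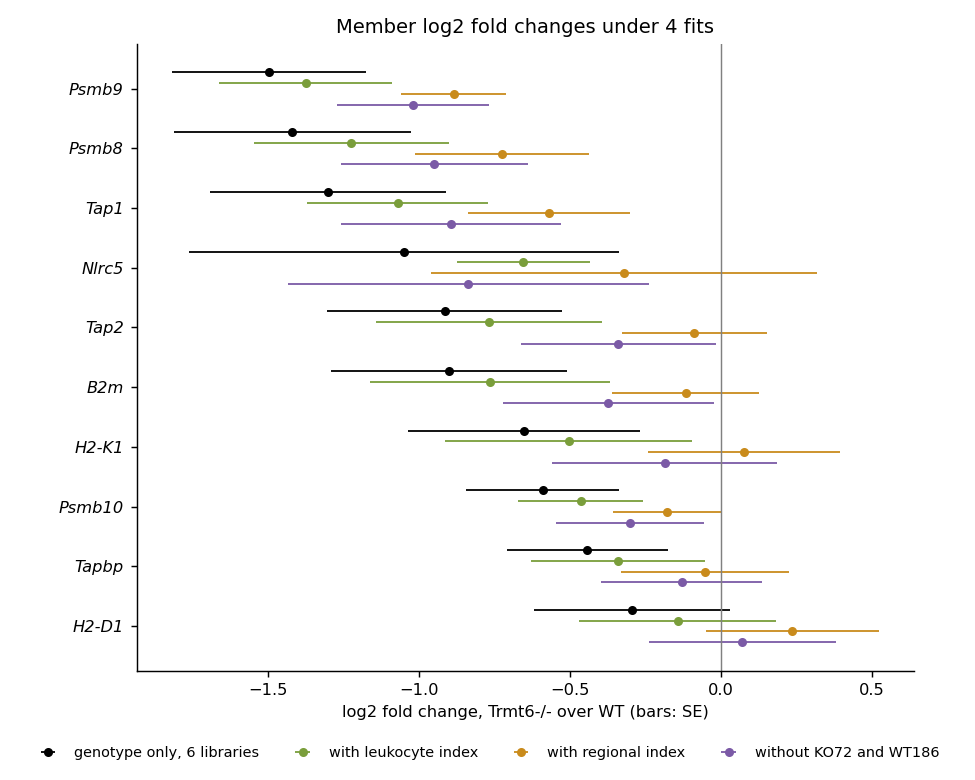
Log2 fold change, Trmt6-/- over WT, of the 10 genes with SE bars under the fit with genotype only, with the T and NK cell index, with the regional index, and without KO72 and WT186. With the regional index H2-K1 and H2-D1 are above 0, and Psmb9 remains the lowest.

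Among the other class I and class I-like chains no gene passed the threshold. Of 31 listed genes, 27 were in the table and 18 were tested: 14 had a fold change below 0 (53.9% of all genes tested did), with a median of -0.68. H2-Q4, H2-Bl, H2-T3, H2-T10 and H2-T23, 5 of the 18, were lower at an unadjusted p under 0.05, beside 5.94% of all genes. The most abundant were H2-Q2 (376 ± 154 CPM in the libraries labelled Trmt6-/- and 748 ± 426 CPM in WT, log2 fold change -0.99 ± 0.53), H2-T23 (-0.96 ± 0.35), which presents peptides to NK receptors, and H2-T3 (-0.83 ± 0.32). Class I paralogs are near copies of each other, so these values are uncertain for the reason given for H2-K1. Partners of peptide loading and trimming, chaperones and peptidases such as Hspa8, Calr and Hspa5, were spread around 0, with a median of 0.06 over 18. At an unadjusted p under 0.05, 1 of the 18 was higher, Blmh (0.52 ± 0.21), and 1 was lower, Hsp90aa1 (-0.92 ± 0.35). Of all 14107 genes tested, 868 were higher and 5.94% lower at that level. The proteasome activators Psme1 and Psme2 stood at -0.31 ± 0.18 and -0.43 ± 0.28. Among 27 genes that regulate class I promoters or interferon signalling, 18 had a fold change below 0 (53.9% of all genes tested did) and the median was -0.09. Of the 27, 4 were lower at an unadjusted p under 0.05 (5.94% of all genes were): Irf1, Rfx5 (-0.66 ± 0.22), Rfxank (-0.78 ± 0.23) and Nfya (-0.58 ± 0.16). The subunits that complete the RFX and NF-Y complexes with them were not at that level, with Rfxap at -0.03, Nfyb at 0.15 and Nfyc at -0.20. The interferon-gamma receptor gene Ifngr1 (0.55 ± 0.16) and Relb (0.41 ± 0.16) were higher at that level, 2 of 27 beside 868 of all 14107 genes tested. Ifngr2 (0.18 ± 0.24) and Jak2 (0.24 ± 0.31), the most abundant of the 27, were not.

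Interferon-gamma-inducible genes outside the class I pathway had a median log2 fold change of -0.77 over 26 tested, with 24 below 0 (53.9% of all genes tested were). The 4 that were lower at an unadjusted p under 0.05 (5.94% of all genes were) were Gbp6, Ifi47 and the immunity-related GTPase genes Igtp (-3.06 ± 0.68) and Irgm2 (-1.94 ± 0.46). The gene models of Igtp and Irgm2 overlap on chromosome 11, so reads that touch both may go uncounted and these 2 values are uncertain. The 3 most abundant of this list were not at that level: Parp14 (-0.62 ± 0.44), Wars (0.52 ± 0.27) and Upp1 (-0.67 ± 0.33). MHC class II presentation genes, 9 tested, had a median of -1.31. Of them 7 were lower at an unadjusted p under 0.05 (5.94% of all genes were) and 5 were lower without overlap (9.03% of all genes were). The 3 most abundant were Cd74 (-1.28 ± 0.45), H2-Ab1 (-1.90 ± 0.49) and H2-Aa (-2.11 ± 0.59). H2-Aa had 60.2, 138 and 157 CPM in KO72, KO73 and KO75, against 179, 731 and 620 CPM in WT185, WT186 and WT187. None of these genes passed the threshold over all genes. Around the class I genes on chromosome 17, 33915899 to 35267499, 67 tested genes outside the lists had a median of -0.02, with 4 lower and 3 higher at an unadjusted p under 0.05. Of all 14107 genes tested, 838 (5.94%) were lower and 868 were higher at that level.

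**Figure D5:**
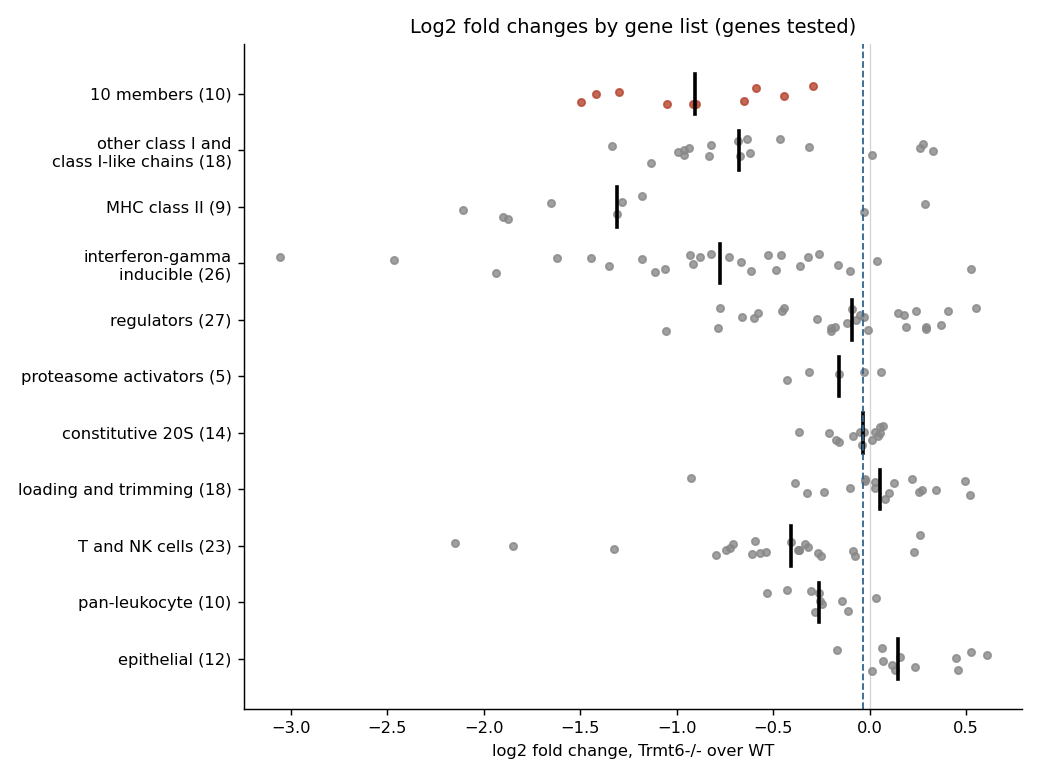
Log2 fold change, Trmt6-/- over WT, of the tested genes of each list, 1 point per gene, with the number tested in brackets, the list's median as a black bar and the median of all genes tested (-0.03) as a dashed line. The class I genes and MHC class II genes lie mostly below 0, and the constitutive 20S proteasome lies around 0.

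The genes whose log2 CPM over the 6 libraries was most like the mean standardised level of the 10 were, among 10338 candidates at 5 CPM or more, Gm11437 (Pearson r = 0.999), H2-DMb1 (0.998), Irf1 (0.989), Isg15 (0.989), Trim30a (0.988), Lct (0.988), Psme1 (0.988), Sec14l1 (0.988), H2-Q4 (0.987) and Zxdc (0.986). Lct, which encodes lactase, is one of the regional markers, and the likeness rests on 6 libraries that differ in the regional and leukocyte markers given above. Irf1, a transcription factor gene of the interferon response, had a log2 fold change of -0.60 ± 0.25 (adjusted p = 0.408).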

How the data were processed

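RNA-seq libraries of intestinal tissue from 3 mice labelled Trmt6-/- and 3 WT mice, all with DSS colitis, were analysed. Per the labels, total RNA was made into amplified cDNA and sequencing libraries with a transposase kit, and no molecular identifiers are named, so PCR copies may be counted. The deposited values are whole-number counts per gene made by the authors, per the file headers with featureCounts 2.0.1 on paired reads, exons grouped by gene, GENCODE M23, with no strand, multimapping or overlap option. Trimming with fastp and alignment with HISAT2 to mm10 are listed in the submitters' processing notes, with no version. The deposited gene length column (unit: other), per the file headers, was used for TPM only. Columns name a group and a number, read here as that of the animal, but no replicate.

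Symbols came from GENCODE M21 on GRCm38, and 55154 of 55335 IDs matched. Low genes were removed by filterByExpr, TMM set the library scale, and edgeR 4.0.16 in R 4.3.3 gave the test (quasi-likelihood, two-sided, genotype only), after a check on simulated data. That check used larger fold changes than the 10 genes had and less spread between libraries than these data. It therefore does not show how often changes of their size would be found. Ratios were tested with exact permutation over libraries (scipy 1.17.1). Alternatives were other scalings, DESeq2 1.42.0, limma 3.58.1 (voom, with and without quality weights), filters, 2 index covariates and each library left out. Leaving out KO72 and WT186, and overlap under other scalings, were added after the data were seen. The members, gene lists and rule were chosen with earlier results of these data known. The rule named Trmt6, the 10 genes, from each list those past the threshold and the 3 most abundant, and the 10 most alike. Not every gene so named is given in the text. Any further gene in the text, such as those at an unadjusted p under 0.05, was picked with its value in view.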

Additional observations from a re-analysis of the deposited data

How the results depend on the processing

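All 10 genes were below 0 under every alternative except the regional index, where H2-K1 was 0.078 and H2-D1 0.24, and the fit without KO72 and WT186, where H2-D1 was 0.071. Of 170 recomputed fold changes, 163 kept direction and side of the threshold, 4 passed it newly, and 3 reversed. Genes of the 10 called numbered 0 with edgeR, 2 with DESeq2, and 1 each with voom quality weights and without the low-count filter (Psmb9). All genes called numbered 6 with edgeR, 633 with DESeq2, 385 with quality weights, 159 without the filter, 1 with the leukocyte index, and 0 with library totals, voom, the regional index or without KO72 and WT186. Leaving out single libraries gave 0 to 6 genes called and medians of the 10 genes from -1.17 (without WT185) to -0.59 (without WT186). The median was -0.15 with the regional index and -0.36 without KO72 and WT186; the cause was not tested. Library totals gave 6 genes without overlap, and 3 otherwise. No paired analysis was possible because the columns carry numbers read here as animal numbers, and no replicate number.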
